A study of Mus musculus with 6 samples.

Results

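In fully grown germinal vesicle oocytes of Rpa1 OcKO mice, 74 of 49315 genes in the deposited table were present that were silent or nearly silent in Control oocytes. A gene was taken as present when each of the 3 OcKO libraries held a CPM of at least 1 (counts scaled to the library's total), and as silent when the 3 Control libraries together held at most 3 counts. The rule found 79 genes, of which 5 were left out by name because they belong to gene families not described here. The counts of both groups chose the members, so their levels below are a description, with no test, and the gap between the groups follows from the rule.

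The OcKO group was 3 mice with an oocyte-specific conditional knockout of Rpa1, the gene of the large subunit of the single-stranded DNA-binding protein RPA, and the Control group was 3 mice named only as Control. All were 4 to 5 weeks old and had received the gonadotropin PMSG, which drives follicle growth. Each library was made from around 20 pooled oocytes of 1 mouse, freed of cumulus cells, with a low-input kit that does not mark the strand. The sources used here name no Cre driver, allele or strain, so what else the Control mice share with the OcKO mice is not known. In pooled oocytes, a few cells with much RNA of a gene and many with little cannot be told apart.

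A growing oocyte fills its cytoplasm with RNA from a broad but selective set of genes, and transcription stops near the end of growth. Genes of differentiated body cells, such as receptors of nerve and muscle, matrix proteins of connective tissue and liver enzymes, are mostly kept silent there, through promoters that stay closed, through missing activators and through repressive chromatin marks. A silent gene leaves almost no RNA, so its first transcripts are easily seen in a deep library, although a few reads do not show that a protein is made.

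Sequence around the transcription start was read from RefSeq (GRCm38.p6), which held the window from 250 bases before to 50 bases after the start for 50 of the 74 genes, with 65 starts in all, matched by symbol or listed synonym. A gene counts as matching if any of its windows does, so a gene with more starts has more chances to match. The number of windows per gene was not compared between the sets below. The windows were searched on both strands for the decamer of the p53 family, the DNA element that p53 and its relatives bind in adjacent copies, because DNA damage is the topic of the series and 1 member, Clca2, is on the list of p53 targets. A match was found in 8 of 50 genes (16.0%), against 8.61% of 5038 other protein-coding genes silent in Control and 9.55% of all 27025 genes with a window. Clca2 itself held no match in its window. The element in 2 copies with a spacer of at most 13 bases was found in 0 of 50 genes, 0.0397% of the other silent genes and 0.0740% of all. The matches upstream of the start follow, with the decamer in capitals and 20 bases on each side, on the strand of the gene, from its position in GRCm38.

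Calhm2 (calcium homeostasis modulator), chr19:47138441-47138490, minus strand: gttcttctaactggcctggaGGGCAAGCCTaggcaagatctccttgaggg
Hrh1 (histamine receptor), farther match, chr6:114458320-114458369, plus strand: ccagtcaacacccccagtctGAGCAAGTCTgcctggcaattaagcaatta
Hrh1, nearer match, chr6:114458419-114458468, plus strand: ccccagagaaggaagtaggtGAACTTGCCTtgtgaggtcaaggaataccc
Agtr1b (angiotensin II receptor), chr3:20367227-20367276, minus strand: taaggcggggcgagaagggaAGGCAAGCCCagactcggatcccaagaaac
Spag9 (signalling scaffold), chr11:94043979-94044028, plus strand: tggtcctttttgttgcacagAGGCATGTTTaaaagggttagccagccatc
Padi3 (peptidylarginine deiminase), chr4:140810848-140810897, minus strand: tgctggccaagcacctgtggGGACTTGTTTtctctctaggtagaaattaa
Gstt3 (glutathione transferase), chr10:75781587-75781636, minus strand: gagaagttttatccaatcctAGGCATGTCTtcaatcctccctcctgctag
Foxn1 (forkhead factor), chr11:78386685-78386734, minus strand: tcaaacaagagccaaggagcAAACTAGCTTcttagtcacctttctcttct

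The matches begin 79 to 229 bases before an annotated start: at -176 in Calhm2, -182 and -83 in Hrh1, -79 in Agtr1b, -131 in Spag9, -229 in Padi3, -202 and -194 from the 2 starts of Gstt3 and -106 in Foxn1. The remaining match, in Coro6, lies after the start. The 8 genes include strongly and weakly expressed members, with OcKO means of 54.5 ± 50.3 CPM for Calhm2 and 2.09 ± 0.548 CPM for Foxn1 (SD, n = 3, here and below). A match is a run of letters, and binding was not measured.

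Other promoter features of the members were nearer to those of all genes than to those of other silent genes. The ratio of observed to chance CpG dinucleotides had a median of 0.55 in the members, against 0.219 in the other silent genes and 0.389 in all genes, and was at least 0.6 in 42.0%, 16.4% and 35.6% of them. Median GC content was 59.3% in the members, 48.7% in the other silent genes and 52.7% in all. The GC box core GGGCGG was found in 58.0% of members, 24.3% of the other silent genes and 38.2% of all genes, and CCAAT in 25 of the 50 members, 40.6% of the other silent genes and 41.1% of all genes. The TATA box core TATAAA was found in 5 of the 50 members, Agtr1b, H2-Q2, Hapln3, Rbp2 and Tnc, against 1210 of the 5038 other silent genes and 15.7% of all genes. In 2 of them it stands at the usual distance from the start, shown with the core in capitals, beginning at -31 in Agtr1b and -27 in H2-Q2.

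Agtr1b, chr3:20367183-20367228, minus strand: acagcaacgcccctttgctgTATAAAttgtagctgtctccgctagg
H2-Q2 (class I histocompatibility molecule), chr17:35342260-35342305, plus strand: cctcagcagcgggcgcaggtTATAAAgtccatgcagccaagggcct

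**Figure D1:**
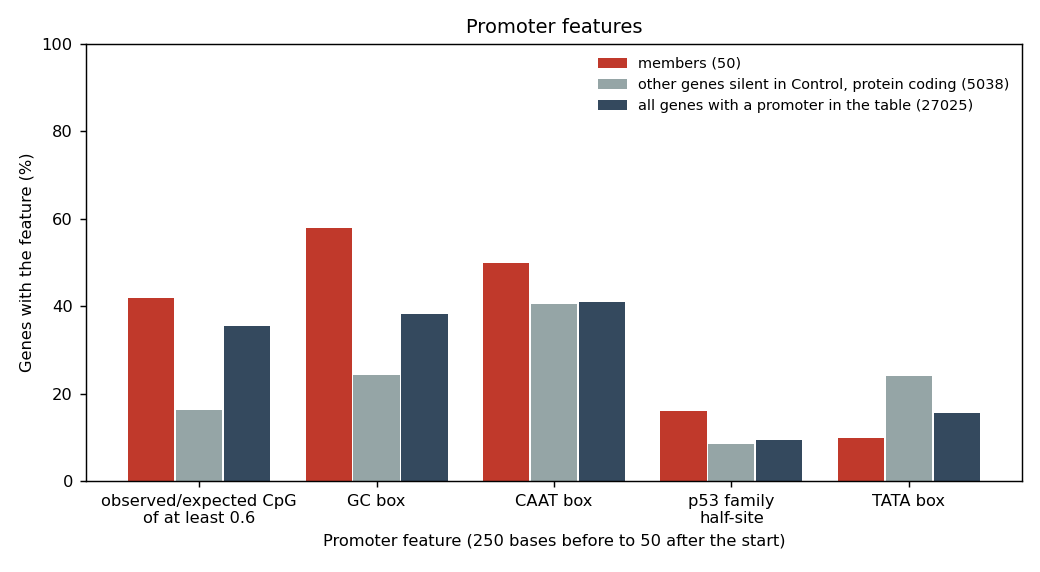
Percent of genes whose promoter window holds each feature, for the 50 members with a window, for 5038 other protein-coding genes silent in Control, and for all 27025 genes with a window. The members stand at 58.0% for the GC box core and 42.0% for a CpG ratio of at least 0.6, above both other sets, and the TATA box core in 5 of the 50 members lies below both.

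Genes silent in Control and present in all OcKO libraries far outnumbered the reverse set. Among 29534 genes silent in Control, 817 reached 1 CPM in 1 OcKO library, 214 in 2 and 79 in all 3. Among 26625 genes silent in OcKO, the numbers reaching 1 CPM in Control libraries were 224, 19 and 1. The OcKO libraries also held more detected genes in general: 19915, 22393 and 21251 genes had a count in OcKO replicates 1 to 3, and 18435, 18330 and 19351 in Control replicates 1 to 3 (exact permutation test, two-sided p = 0.1, the smallest that 3 against 3 can give). The part of that difference in the number of members was not tested.

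**Figure D2:**
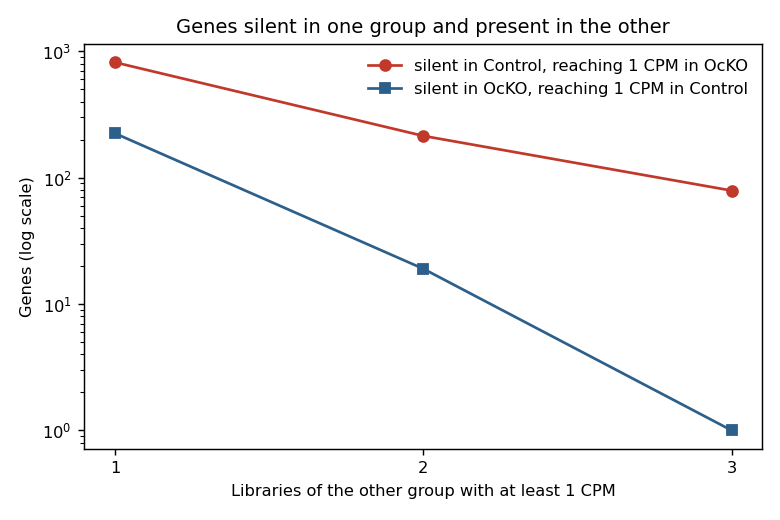
Number of genes (log axis) that were silent in 1 group, with at most 3 counts over its 3 libraries, and reached 1 CPM in exactly 1, 2 or 3 libraries of the other group. Genes silent in Control numbered 817, 214 and 79, and genes silent in OcKO 224, 19 and 1.

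Of the 74 members, 39 had no count in any Control library, 16 had 1 count, 10 had 2 and 9 had 3. All members together held 28766, 17756 and 27908 counts in OcKO replicates 1 to 3, or 682, 398 and 769 CPM, and 19, 15 and 29 counts in Control replicates 1 to 3. They made up 0.0682%, 0.0398% and 0.0769% of the OcKO counts. OcKO means of at least 10 CPM were reached by 16 members, at least 5 CPM by 33 and at least 2 CPM by 65. Just inside the limit of 1 CPM stood Fkbp10, with a lowest OcKO library of 1.01 CPM, and Comtd1, with 1.05 CPM. Just outside stood B4galnt2 and Scrn2, each with a lowest OcKO library of 0.965 CPM, and Gm16023 with 0.942 CPM. A Control sum of 4 kept out 5 genes that met the other condition, Gm13703, Pcdh19, Ddit4l, Decr1 and Cox7a1, and a sum of 4 to 10 kept out 29. Ddit4l had 9.86, 16.8 and 60.0 CPM in OcKO replicates 1 to 3, more than most members.

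The number of members depends on the limits and on the libraries. It was 39 with no Control count allowed, 142 with 0.5 CPM in each OcKO library and 46 with 2 CPM. Without 1 OcKO library there is 1 condition fewer. Without 1 Control library, the limit on the sum of the remaining Control libraries was lowered to 2 counts. In these settings 101 to 169 genes passed: 169 without Control replicate 3, 161 without OcKO replicate 1, 137 without OcKO replicate 2, 137 without OcKO replicate 3 and 112 without Control replicate 1.

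Total counts were 36280148 to 44575222 per library. Rpa1, the targeted gene, had 7.76, 4.14 and 6.84 CPM scaled with the trimmed mean of M-values (TMM) in OcKO, against 156, 155 and 140 in Control (log2 fold change -4.59, SE 0.31, edgeR adjusted p = 0.0064). Over all genes, edgeR called 23 of 16060 tested genes at an adjusted p under 0.05, or 0.143%: 22 higher (0.137%) and 1 lower (0.00623%). All 74 members passed the filter on low counts, each through its OcKO libraries, and 9 were called. Because the rule used this contrast, nothing is read from that count. Without 1 library, 0 to 2 members were called; with DESeq2, whose background is 4.70% of genes, 73 were. Replicates are separate mice, so their spread holds animal, oocyte and library differences together.

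**Figure D3:**
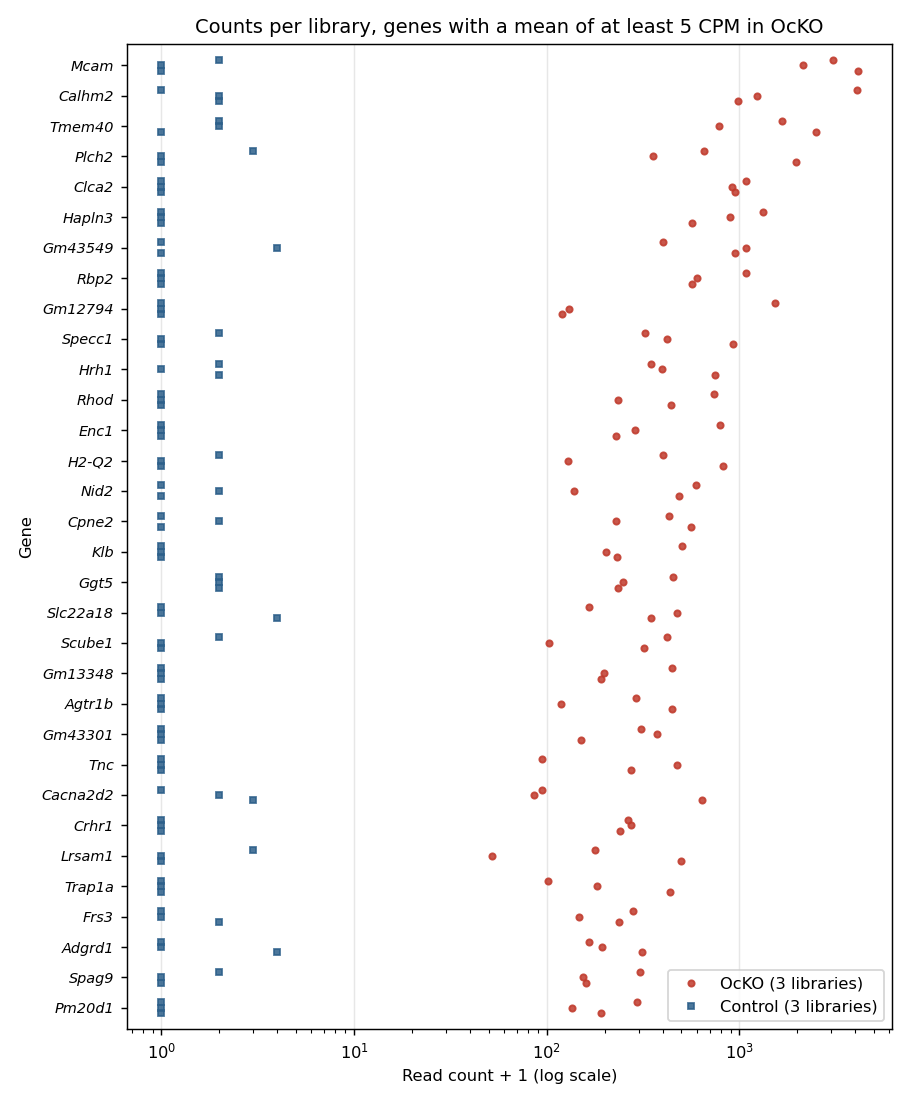
Counts plus 1 (log axis) of members with an OcKO mean of at least 5 CPM, in the 3 OcKO and the 3 Control libraries. Every gene drawn has 0 to 3 counts in each Control library, and Mcam, at the top, has 97.3, 48.2 and 84.5 CPM in the OcKO libraries.

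The 20 receptors and signalling genes were the largest functional group. Together they held 149, 69.1 and 132 CPM in OcKO replicates 1 to 3, and 7, 2 and 12 counts in Control replicates 1 to 3. The most abundant was Plch2, a phospholipase C of the eta class that is used in neurons (ENSMUSG00000029055, chromosome 4, 154983115 to 155056784, minus strand, GRCm38). Plch2 had 46.7, 8.01 and 17.9 CPM in OcKO (24.2 ± 20.1 CPM), against 0, 0 and 2 counts in Control, a ratio of 1400 (exact 95% counting interval 387 to 11560). OcKO replicate 1 was far above replicates 2 and 3. Intervals and lower bounds, here and below, cover counting error alone and not the spread between mice. That they are large follows from the rule.

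Receptors of hormones and transmitters came next. Hrh1, the H1 receptor for histamine (ENSMUSG00000053004, chromosome 6, 114397936 to 114483296, plus strand), had 17.6, 8.84 and 9.59 CPM in OcKO, against 1, 0 and 1 counts in Control. Agtr1b, which binds angiotensin II, had 10.6, 2.65 and 7.97 CPM in OcKO, against 0 counts in Control, at least 267-fold higher with Control set at 3 counts over the group. Crhr1, the receptor for corticotropin-releasing hormone of the pituitary and brain, had 5.66, 6.12 and 7.28 CPM in OcKO, against 0 counts in Control, at least 243-fold higher. Crhr1 was among the steadiest members, whereas Agtr1b was clearly lowest in OcKO replicate 2. Adgrd1, an adhesion-type receptor that signals through G proteins, had 7.42, 4.31 and 4.52 CPM in OcKO, against 3, 0 and 0 counts in Control. Klb, the co-receptor that lets liver and fat respond to endocrine fibroblast growth factors, had 5.45, 4.53 and 13.9 CPM in OcKO, against 0 counts in Control, at least 293-fold higher. Frs3, an adaptor of fibroblast growth factor receptors, had 5.62, 3.28 and 7.72 CPM in OcKO, against 1, 0 and 0 counts in Control. Both genes of this pathway were highest in OcKO replicate 3.

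Both other genes of the group with a mean over 5 CPM act at membranes. Rhod, a small GTPase of endosomes and actin, had 10.4, 5.2 and 20.3 CPM in OcKO, against 0 counts in Control, at least 441-fold higher. Scube1, a secreted or surface protein with EGF-like domains found in vessels and platelets, had 7.58, 2.29 and 11.5 CPM in OcKO, against 0, 0 and 1 counts in Control. Both were lowest in OcKO replicate 2. The other 11 had OcKO means of 1.49 CPM (Procr) to 4.03 CPM (Scara5). They included the receptors Scara5 (ferritin), Gpr50 (related to melatonin receptors), Gpr142 (pancreatic islet), Procr (protein C), Ptk7 and Celsr2 (both of planar cell polarity), the secreted ligand Ntf3 (a neurotrophin) and Nell2, and the signal regulators Rgs16 and Ppp1r1b. Ntf3 had 1.42, 1.10 and 6.42 CPM in OcKO, against 0 counts in Control, so most of its signal came from replicate 3.

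The 9 adhesion and matrix genes held 153, 90.5 and 156 CPM in OcKO and 0, 1 and 5 counts in Control. Mcam, an immunoglobulin-type adhesion protein of endothelium and smooth muscle (ENSMUSG00000032135, chromosome 9, 44134469 to 44142727, plus strand), was the most abundant of all members. Its CPM were 97.3, 48.2 and 84.5 in OcKO (76.7 ± 25.5 CPM), against 0, 0 and 1 counts in Control, a ratio of 8762 (counting interval 1572 to 346100). Hapln3, a link protein that joins hyaluronan to proteoglycans (ENSMUSG00000030606, chromosome 7, 79115102 to 79131018, minus strand), had 13.4, 19.9 and 36.6 CPM in OcKO, against 0 counts in Control, at least 872-fold higher. All 3 OcKO libraries carried both genes at more than 10 CPM.

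Nid2, a nidogen of basement membranes, had 11.5, 3.10 and 16.5 CPM in OcKO, against 0, 1 and 0 counts in Control. Tnc, tenascin C of developing and injured connective tissue, had 6.47, 10.7 and 2.59 CPM in OcKO, against 0 counts in Control, at least 264-fold higher. Tnc was 1 of 6 members with its highest level in OcKO replicate 2. The other 5 had means of 2.80 CPM (Cdcp1) to 3.61 CPM (Fkbp10 and Dsc3): the collagen-folding isomerase Fkbp10, the desmosomal cadherin Dsc3, the membrane-bound protease Mmp15, the elastic fibre protein Emilin3 and the CUB-domain protein Cdcp1. Dsc3 had 6.26, 2.33 and 2.23 CPM in OcKO, against 0 counts in Control. Dsc2, its closest relative in name, was already present in Control, as described below.

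The 5 channel and transporter genes held 73.4, 63.4 and 152 CPM in OcKO and 7, 2 and 0 counts in Control. Calhm2, of the family of calcium homeostasis modulators that form large pores (ENSMUSG00000033033, chromosome 19, 47105353 to 47138294, minus strand), had 23.2, 27.8 and 112 CPM in OcKO (54.5 ± 50.3 CPM), against 1, 1 and 0 counts in Control. OcKO replicate 3 accounts for most of it. Clca2, a p53 target of stratified epithelia (ENSMUSG00000036960, chromosome 3, 145070263 to 145099443, minus strand), had 22.5, 20.4 and 29.6 CPM in OcKO (24.2 ± 4.83 CPM), against 0 counts in Control, at least 920-fold higher. The OcKO libraries lay close together for Clca2, in contrast to Calhm2. Slc22a18, a transporter-like gene of an imprinted region, had 8.22, 10.6 and 4.55 CPM in OcKO, against 3, 0 and 0 counts in Control. Cacna2d2, an auxiliary subunit of voltage-gated calcium channels, had 15.2, 1.91 and 2.59 CPM in OcKO, against 2, 1 and 0 counts in Control, so it was high only in replicate 1. Kcnv2, a modifier subunit of potassium channels in the retina, averaged 3.17 ± 1.02 CPM in OcKO, against 1 count in Control.

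The 10 enzymes held 61.3, 43.4 and 75 CPM in OcKO and 2, 2 and 2 counts in Control. Rbp2, the retinol-binding protein of the intestinal lining (ENSMUSG00000032454, chromosome 9, 98486115 to 98509781, plus strand), is grouped with them as a gene of vitamin A metabolism. Rbp2 had 13.4, 13.4 and 29.7 CPM in OcKO, against 0 counts in Control, at least 702-fold higher. Rbp2 was highest in OcKO replicate 3. Ggt5, a gamma-glutamyltransferase, had 5.52, 5.54 and 12.5 CPM in OcKO, against 1 count in each Control library. Pm20d1, a secreted enzyme that joins fatty acids to amino acids, had 4.50, 3.03 and 8.05 CPM in OcKO, against 0 counts in Control, at least 193-fold higher. The other 6 had means of 1.35 CPM (Gpx7) to 4.53 CPM (Padi3). They were Padi3 (a deiminase of skin and hair), Gstt3 (a glutathione transferase), Acad8 (valine breakdown), Car14 (a membrane-bound carbonic anhydrase), Comtd1 (a methyltransferase-domain protein) and Gpx7 (a peroxidase of the endoplasmic reticulum). Gpx7 was the steadiest of all members, with 1.45, 1.28 and 1.32 CPM in OcKO, against 0 counts in Control.

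The 10 cytoskeletal and other intracellular genes held 74.6, 35.0 and 69.0 CPM in OcKO and 0, 1 and 4 counts in Control. Specc1, of the cytospin family that binds actin and microtubules, had 21.9, 9.44 and 8.88 CPM in OcKO, against 0, 0 and 1 counts in Control. Enc1, a kelch-repeat protein of neurons, had 5.38, 6.44 and 21.9 CPM in OcKO, against 0 counts in Control, at least 410-fold higher. The highest library was replicate 1 for Specc1 and replicate 3 for Enc1. Cpne2, a copine that binds phospholipid with calcium, had 13.2, 5.14 and 11.8 CPM in OcKO, against 0, 1 and 0 counts in Control. Lrsam1, a ubiquitin ligase, had 11.8, 1.14 and 4.85 CPM in OcKO, against 0, 0 and 2 counts in Control. Spag9, a scaffold of JNK signalling and motor transport, had 3.77, 3.45 and 8.41 CPM in OcKO, against 0, 0 and 1 counts in Control. For Cpne2 and Lrsam1, as for most members, OcKO replicate 2 was the lowest. The other 5 had means of 1.56 CPM (Btbd3) to 4.10 CPM (Coro6), and were Coro6, Gimd1, Nckipsd, Dnajb3 and Btbd3, none of which had a Control count.

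The 4 genes of immunity and defence held 33.0, 9 and 20.3 CPM in OcKO and 2, 3 and 3 counts in Control. H2-Q2, a class I molecule of the Q region, had 19.5, 2.87 and 11.1 CPM in OcKO, against 0, 0 and 1 counts in Control. Class I genes are near-identical copies of each other, so its counts are uncertain. Irgm2, an interferon-inducible GTPase, averaged 4.55 ± 2.83 CPM and Clu, the secreted chaperone clusterin, 2.42 ± 0.804 CPM in OcKO, against 3 and 1 counts in Control. The 5 genes of transcription had means of 2.09 CPM (Foxn1) to 4.90 CPM (Myocd) and held 17.5, 14.6 and 22.4 CPM in OcKO and 1, 0 and 1 counts in Control. They were Myocd (a coactivator of smooth muscle and heart), Creb3l1 (a membrane-bound factor of secretory cells), Foxn1 (thymus and hair follicle), Btbd18 (piRNA genes of the testis) and Zfp213. Foxn1 had 2.13, 1.53 and 2.62 CPM in OcKO, against 0 counts in Control.

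Of the members, 67 are annotated as protein-coding, 3 as lincRNA, 3 as antisense RNA and 1 as a processed transcript. The 11 little characterised or non-coding genes held 120, 73.4 and 143 CPM in OcKO and 0, 4 and 2 counts in Control. Tmem40, a transmembrane protein (ENSMUSG00000059900, chromosome 6, 115729131 to 115762410, minus strand), had 59.5, 17.6 and 45.8 CPM in OcKO (41.0 ± 21.4 CPM), against 0, 1 and 1 counts in Control, a ratio of 2330 (counting interval 645 to 19250). Trap1a, the mouse tumour rejection antigen P1A on the X chromosome, had 10.3, 4.06 and 2.78 CPM in OcKO, against 0 counts in Control, at least 224-fold higher. Both were highest in OcKO replicate 1. The others, Gm43549, Gm12794, Gm13348, Gm43301, BC080695, Gm807, Gm28979, C230038L03Rik and Gm12120, had OcKO means of 1.77 CPM (Gm12120) to 19.2 CPM (Gm43549).

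By the tissue in which the members are best known, the set was mixed. From general knowledge, 14 belong to the nervous system, 10 to vessels, smooth muscle or connective tissue, 8 to liver, kidney or intestine, 4 to stratified epithelium, skin or thymus, 3 to immune cells, 2 to testis, 5 to other single tissues and 17 to several tissues, and 12 were not assigned. Car14 counts under both nervous system and kidney. The 14 nervous system genes held 120, 53.9 and 90.0 CPM in OcKO replicates 1 to 3, and the 10 vessel and connective tissue genes 154, 97.0 and 162 CPM. The 4 epithelial genes, Clca2, Padi3, Dsc3 and Foxn1, held 33.6, 30.8 and 38.8 CPM. That sum was the steadiest of these sets, but Clca2 made up most of it. Padi3, with 2.72, 6.57 and 4.30 CPM, and Dsc3, with 6.26, 2.33 and 2.23 CPM, were less steady.

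Markers of other cells that an oocyte sample could hold were summed per library. The 18 granulosa and cumulus markers summed to 103 to 122 CPM in OcKO, against 60.8 to 114 CPM in Control (exact permutation test, two-sided p = 0.2). Ptx3 had 0 counts in all 6 libraries, whereas Has2 had 195, 90 and 0 counts in OcKO against 0 in Control. Of the 9 tested genes of this list, libraries did not overlap for 0 higher and 0 lower. Over all tested genes these shares are 10.7% higher and 8.67% lower, here and for the lists below. The 15 theca and stroma markers summed to 91.6 to 109 CPM in OcKO, against 138 to 240 CPM in Control (exact p = 0.1), with Insl3 at 0. Myh11, a smooth muscle myosin, makes up most of that sum, and the other 14 genes summed to 18.6 to 35.1 CPM in OcKO, against 12.8 to 26.1 CPM in Control (exact p = 0.7). Of the 9 tested theca and stroma genes, libraries did not overlap for 2 higher and 1 lower. Cyp17a1, 1 of the 2, had 20, 29 and 31 counts in OcKO against 0 in Control. The 10 endothelial markers summed to 156 to 254 CPM in OcKO, against 104 to 163 CPM in Control (exact p = 0.2), with Esam at 0. Without Pecam1, the most abundant, the other 9 summed to 72.1 to 126 CPM in OcKO, against 34.7 to 60.9 CPM in Control, with no overlap (exact p = 0.1). Most of that sum was Tek, with 119, 50.1 and 55.1 CPM in OcKO, against 35.2, 29.5 and 24.4 CPM in Control. Of the 6 tested endothelial genes, libraries did not overlap for 1 higher and 0 lower. Immune markers (11 genes, exact p = 0.7) stayed under 10 CPM in OcKO, with 1.56 to 9.01 CPM against 3.99 to 12.9 CPM in Control. Of the 4 tested immune genes, libraries did not overlap for 0 higher and 1 lower. Red cell markers (7 genes, exact p = 0.6) gave 0.142 to 1.95 CPM in OcKO, against 0.345 to 2.63 CPM in Control. The 7 surface epithelium markers summed to 311 to 415 CPM in OcKO, against 373 to 611 CPM in Control (exact p = 0.2), with Upk1b and Msln at 0. The part of these cell types in the members' levels was not tested.

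Markers of the tissues that the members recall were also examined, members left out. Beside Rbp2, the 11 other enterocyte markers summed to 160 to 290 CPM in OcKO, against 186 to 357 CPM in Control (exact p = 0.7), with Fabp1 and Sis at 0 in all libraries. Vil1 makes up most of that sum, and the other 10 summed to 8.70 to 25.4 CPM in OcKO, against 2.97 to 22.3 CPM in Control (exact p = 0.4). The 10 neuron and glia markers summed to 46.9 to 59.5 CPM in OcKO, against 37.5 to 57.7 CPM in Control (exact p = 0.4), with Gfap at 0. Without Syt1, the other 9 summed to 24.2 to 29.4 CPM in OcKO, against 13.2 to 15.9 CPM in Control, with no overlap (exact p = 0.1). Most of that sum was Map2, with 28.8, 23.5 and 19.1 CPM in OcKO, against 15.8, 14.1 and 11.3 CPM in Control. Of the 3 tested neuron genes, libraries did not overlap for 1 higher and 0 lower. The 11 testis markers summed to 20.1 to 40.9 CPM in OcKO, against 10.6 to 21.3 CPM in Control (exact p = 0.3), with Prm1, Tnp1, Tnp2 and Pgk2 at 0. Without Ldhc, the other 10 summed to 11.6 to 19.4 CPM in OcKO, against 7.11 to 9.997 CPM in Control, with no overlap (exact p = 0.1). The largest part was Prm2, with 12.4, 9.02 and 12.2 CPM in OcKO, against 6.82, 6.79 and 4.29 CPM in Control. Of the 4 tested testis genes, libraries did not overlap for 2 higher and 0 lower, beside 10.7% and 8.67% over all tested genes. A difference of the lists from these shares was not tested. The part of such RNA in the members' levels was not tested. The 17 oocyte markers summed to 37580 to 48720 CPM in OcKO, against 42990 to 62630 CPM in Control (exact p = 0.6), so both groups carry the labelled cell type. Of these 17, all tested, libraries did not overlap for 0 higher and 4 lower, and the median log2 fold change was -0.28. For the tested red cell, surface epithelium and enterocyte genes, libraries overlapped throughout. In each of these 10 lists edgeR called 0 genes, and over their 60 tested genes 4 were higher and 4 lower at a raw p under 0.05. The genes with the smallest p were Bmp15 (oocyte), Inha (granulosa), Cyp17a1 (theca), Tek (endothelium), Cd3e (immune), Hba-a1 (red cell), Cdh1 (surface epithelium), Vil1 (enterocyte), Map2 (neuron) and Spaca1 (testis), with edgeR adjusted p of 0.1196 to 0.95. Over the 10 lists limma voom made 0 calls, and DESeq2 made 1 call on the higher and 2 on the lower side.

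The list of p53 targets moved in the direction of Clca2, its 1 member here. Of the 38 other targets tested, edgeR called 4 higher and 0 lower over all genes, DESeq2 called 13 and 0, and limma voom called 0. Libraries did not overlap for 19 higher and 1 lower, where the shares over all tested genes are 10.7% and 8.67%, and the median log2 fold change was 1.11, against 0.01 over all tested genes. 1 of the 4, Eda2r, also enters the 19 and the median. It is itself among the 5 genes that met the rule and were left out by name. Its values of 14.8 ± 1.98 TMM-scaled CPM in OcKO and 0.0096 ± 0.0166 in Control therefore restate the rule. Pmaip1, the gene of NOXA, averaged 35.7 ± 29.2 TMM-scaled CPM in OcKO and 0.111 ± 0.0732 in Control (edgeR adjusted p = 0.0383), and Btg2 225 ± 49.1 in OcKO and 28.8 ± 13.0 in Control (edgeR adjusted p = 0.045). Without any 1 library, 0 targets were called. The 44 stratified epithelium genes beside Dsc3 summed to 2081 to 2320 CPM in OcKO, against 2053 to 2842 CPM in Control (exact permutation test, two-sided p = 0.6). On the TMM scale the mean OcKO minus Control difference was -504.8 CPM (exact permutation test, two-sided p = 0.1). Of the 35 tested genes of this list, edgeR called 0. Libraries did not overlap for 6 higher and 1 lower, beside the same 10.7% and 8.67% over all genes, and the median was 0.12. A raw p under 0.05 was found for 4 on the higher and 3 on the lower side, while DESeq2 made 2 calls, both on the higher side, and limma voom made 0. Fermt1, which encodes kindlin-1 of epidermal adhesion, had the smallest p, at 49.2 ± 26.5 TMM-scaled CPM in OcKO and 0.269 ± 0.466 in Control (edgeR adjusted p = 0.1196).

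The members did not move as 1 block over the OcKO mice. OcKO replicate 1 was the highest library for 35 members, replicate 2 for 6 and replicate 3 for 33, or 47.3%, 8.1% and 44.6%. Among 8657 other genes in the same range of OcKO means, the shares were 32.7%, 27.8% and 39.5%. Replicate 2 was the lowest for 41 members. The highest OcKO library stood 2.46 times above the lowest in the median member, against 1.95 times in the other genes of the range. The ratio was under 2 for 19 members and over 5 for 10: Plch2, Gm12794, H2-Q2, Nid2, Scube1, Cacna2d2, Lrsam1, Gpr50, Fkbp10 and Ntf3. It ran from 1.13 in Gpx7 to 15.0 in Gm12794. Across the 74 members, Pearson's r of log2 CPM was 0.69 between OcKO replicates 1 and 2, 0.64 between 1 and 3 and 0.71 between 2 and 3. Across other genes it was 0.92, 0.93 and 0.93. For this value their levels were not matched to those of the members, so r is not comparable between the sets. The genes are not independent replicates, and both sets share the libraries.

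**Figure D4:**
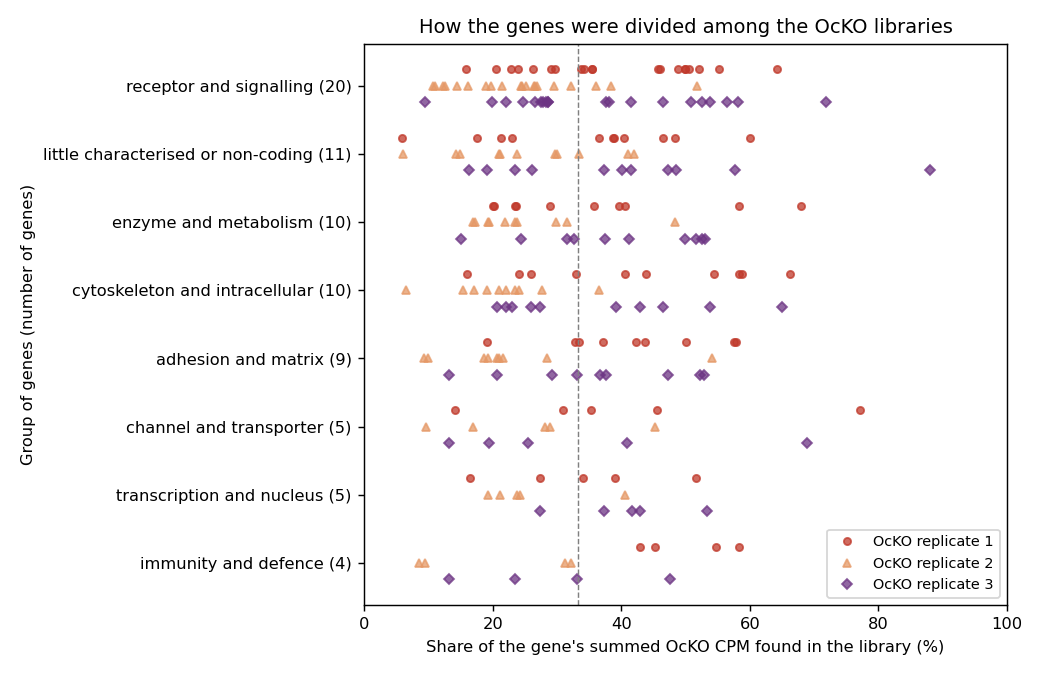
Share of each member's OcKO CPM that came from replicate 1, 2 and 3, with members grouped by function. Replicate 2 holds the smallest share in 41 of 74 members. Gm12794, Calhm2 and Cacna2d2 are among several members that draw most of their signal from 1 library.

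Gm12794, the most uneven member, belongs to the Pramel family of early embryos (RefSeq names it Pramel19). It had 2.82, 2.92 and 42.3 CPM in OcKO, against 0 counts in Control. Genes known from genome activation at the 2-cell stage were high in the same library: of 15 found, 12 had their highest level of all 6 libraries in OcKO replicate 3, and 7 reached 1 CPM there and nowhere else. Zscan4a, a zinc finger gene of that stage, had 0, 0.112 and 31.9 CPM in OcKO, against 0.133, 0.0720 and 0.0820 CPM in Control. Usp17la had 0, 1.39 and 31.5 CPM in OcKO, against 0 in Control, and Zfp352 had 0, 0 and 5.62 CPM in OcKO, against 0 in Control. These 3 were named after their values were seen. All of these families hold near-identical copies, so single-gene counts are uncertain. The summed list gave 198, 234 and 373 CPM in OcKO, against 277 to 304 CPM in Control (exact p = 0.7), and edgeR called 0 of its 5 tested genes (1 at a raw p under 0.05, 1 by DESeq2, 0 by limma voom). The smallest p was that of Sp110 (adjusted p = 0.1405). Its part in the level of Gm12794 was not tested.

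The members were scattered over the genome. They lie on 18 chromosomes, with 11 on chromosome 11 and 7 each on chromosomes 2, 4 and 9. Of all pairs, 4 lie within 1 Mb of each other: Ggt5 and Gstt3 on chromosome 10 (156.9 kb apart), Scara5 and Clu on chromosome 14 (203.7 kb), Cpne2 and Mmp15 on chromosome 8 (781.7 kb) and Coro6 and Foxn1 on chromosome 11 (887.1 kb). None of the tested protein-coding genes between the pairs was called. Between Scara5 and Clu, the kinase gene Pbk and the gene Ccdc25 were higher in all OcKO libraries, with 1134, 2089 and 929 Pbk counts in OcKO against 781, 363 and 478 in Control, while Esco2 overlapped. Between Ggt5 and Gstt3, Ddt was lower in all OcKO libraries, with 11.1, 15.3 and 12.2 CPM in OcKO against 21.3, 16.4 and 15.8 CPM in Control, and Cabin1 overlapped. Between Cpne2 and Mmp15, 15 genes were tested: 3, Arl2bp, Coq9 and Usb1, were higher in all OcKO libraries and 12 overlapped. Between Coro6 and Foxn1, 22 were tested: 2, Phf12 and Supt6, were lower in all OcKO libraries and 20 overlapped. These genes of the intervals were named after their values were seen. Over all tested genes, libraries did not overlap for 10.7% higher and 8.67% lower. A difference of the intervals from these shares was not tested.

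The nearest tested genes beside the members were not called either. Of 162 such neighbours, edgeR called 0 in either direction; a raw p under 0.05 was found for 11 higher and 5 lower ones, DESeq2 called 5 and 3, and limma voom 0 and 0. Libraries did not overlap for 29 neighbours higher in OcKO (17.9%) and 10 lower (6.17%), against 10.7% and 8.67% of all tested genes. The neighbours' median log2 fold change was 0.14, against 0.01 over all tested genes. Within 100 kb, the shares were 20 of 124 higher (16.1%) and 7 lower (5.65%). Of 28 neighbours within 100 kb on the same strand and upstream of the member, 4 were higher without overlap (14.3%).

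Some close neighbours are given as values, chosen after they were seen. Thyn1 starts 0.1 kb from Acad8 on the opposite strand and had 116, 145 and 125 TMM-scaled CPM in OcKO, against 62.0, 46.2 and 46.5 in Control (log2 fold change 1.32, SE 0.21, edgeR adjusted p = 0.1092). Its range did not overlap, and unlike Acad8 it was well expressed in Control. Usb1, 4.8 kb upstream of Mmp15 on the same strand, had 16.9, 6.71 and 22.0 TMM-scaled CPM in OcKO, against 0.110, 2.11 and 0.490 in Control (edgeR adjusted p = 0.2104). Gm13032, 0.3 kb from Padi3 on the opposite strand, averaged 21.9 ± 4.71 TMM-scaled CPM in OcKO and 4.45 ± 4.86 in Control (edgeR adjusted p = 0.3233). Like Mmp15 and Padi3, both were higher in OcKO, but with Control RNA present.

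Exons of 19 members overlap those of another gene, 16 with an opposite-strand and 4 with a same-strand partner, and the libraries do not keep the strand. Calhm2 shares 393 bases (9.01% of its exons) with Pdcd11, which averaged 31.4 ± 7.91 TMM-scaled CPM in OcKO and 31.0 ± 8.52 in Control. Nid2 shares 386 bases (7.9%) with Rtraf, which averaged 134 ± 31.4 in OcKO and 112 ± 13.2 in Control. Car14 shares 445 bases (17.5%) with Aph1a, at 41.0 ± 6.26 in OcKO and 41.4 ± 11.4 in Control, and Comtd1 shares 19 bases with Vdac2, at 105 ± 34.3 in OcKO and 95.2 ± 4.60 in Control. These 4 members had at most 2 Control counts although their partners were expressed in Control. The partner was higher in all OcKO libraries for Lrsam1 (Fam129b, with 334, 107 and 86 counts in OcKO against 1, 0 and 67 in Control) and for C230038L03Rik (Nars2, with 566, 144 and 158 counts in OcKO against 78, 1 and 49 in Control). C230038L03Rik also overlaps Tenm4, Lrsam1 also Rpl12, Fkbp10 overlaps Nt5c3b, and Irgm2 overlaps Igtp on the same strand; libraries of these partners overlapped between the groups.

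The remaining partners had few counts. Gm10564 (Plch2), Gm17141 (Cacna2d2), Gm13057 (BC080695), Gm26695 (Zfp213), Gm20441 (Gstt3) and Gm28513 (Rgs16) had 0 counts in all 6 libraries. Gm10687 (Mcam), A930001C03Rik (Rhod), 8030451A03Rik (Tnc), Tomm6os and Frs3os (both Frs3), A430057M04Rik (Comtd1) and 1700003D09Rik (Ppp1r1b) had at most 42 counts in any library. The sources used here do not give how reads in shared exons were counted.

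No gene of the members' families was called. By symbol stem, 41 members had 211 relatives in families of at most 30 genes, of which 111 passed the filter and 100 did not. edgeR called 0 of the 111 in either direction; 11 higher and 5 lower ones had a raw p under 0.05, DESeq2 called 6 and 2, and limma voom 0 and 0. Libraries did not overlap for 12 higher (10.8%) and 7 lower (6.31%), against 10.7% and 8.67% of all tested genes, and the median log2 fold change was -0.04. A shared stem is a likeness of names and does not always mean kinship. Of the 32 members with a tested relative, 23 had 1 with at least 10 TMM-scaled CPM in Control. Per kb of exon, 8 of the 32 members stood above their most abundant relative in OcKO.

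In several families the most abundant relative was well expressed in both groups. Padi6, the deiminase of oocyte cytoplasmic lattices and relative of Padi3, averaged 8738 ± 1995 TMM-scaled CPM in OcKO and 9532 ± 2142 in Control. Rgs2, a relative of Rgs16, averaged 569 ± 193 in OcKO and 484 ± 25.6 in Control. Fkbp5, a relative of Fkbp10, averaged 410 ± 47.2 in OcKO and 532 ± 74.8 in Control. All its OcKO libraries were below all Control libraries (edgeR adjusted p = 0.5068). None of the 3 was called. Dsc2, the relative of Dsc3, averaged 20.6 ± 12.1 in OcKO and 12.7 ± 6.15 in Control. Specc1l, the relative of Specc1, averaged 164 ± 44.1 in OcKO and 308 ± 49.8 in Control, with all OcKO libraries below all Control libraries (edgeR adjusted p = 0.2097).

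Among the members described in every library, the top relatives of 5 more were present in both groups at similar or overlapping levels. On the TMM-scaled CPM scale, Cacna1h (for Cacna2d2) averaged 63.7 ± 26.2 in OcKO and 112 ± 48.0 in Control, and Cpne9 (for Cpne2) 95.4 ± 28.1 in OcKO and 119 ± 25.7 in Control. Spag7 (for Spag9) averaged 121 ± 14.0 in OcKO and 140 ± 21.0 in Control. Ggt1 (for Ggt5) averaged 27.6 ± 6.78 in OcKO and 33.0 ± 0.422 in Control. Libraries of these 4 overlapped between the groups. Frs2 (for Frs3) averaged 9.22 ± 3.16 in OcKO and 9.62 ± 4.15 in Control. Trap1, which shares only a name stem with Trap1a, averaged 121 ± 41.9 in OcKO and 126 ± 7.59 in Control. The other pairs were also matched by name stem, and their kinship was not examined.

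In other families even the most abundant relative was low. Rbp7, for Rbp2, had 126, 34 and 29 counts in OcKO, against 0 in Control (edgeR adjusted p = 0.1231). Nid1, for Nid2, had 31, 80 and 210 counts in OcKO, against 1, 0 and 0 in Control (edgeR adjusted p = 0.1214). These 2 relatives missed the rule in at least 1 library, Rbp7 in OcKO replicates 2 and 3 and Nid1 in replicate 1. Hrh2, for Hrh1, averaged 5.13 ± 5.69 TMM-scaled CPM in OcKO and 0.557 ± 0.940 in Control, and Clca3b, for Clca2, 0.907 ± 0.253 in OcKO and 0.535 ± 0.472 in Control. Plch1, for Plch2, averaged 2.23 ± 2.03 in OcKO and 6.93 ± 11.9 in Control, and the pseudogene Adgrd2-ps, for Adgrd1, 2.81 ± 4.02 in OcKO and 3.28 ± 4.16 in Control. For these 4 the groups overlapped. The relative with the smallest p was Fkbp9, of the same endoplasmic reticulum isomerases as Fkbp10, at 107 ± 44.7 in OcKO and 10.2 ± 4.59 in Control (edgeR adjusted p = 0.0643).

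**Figure D5:**
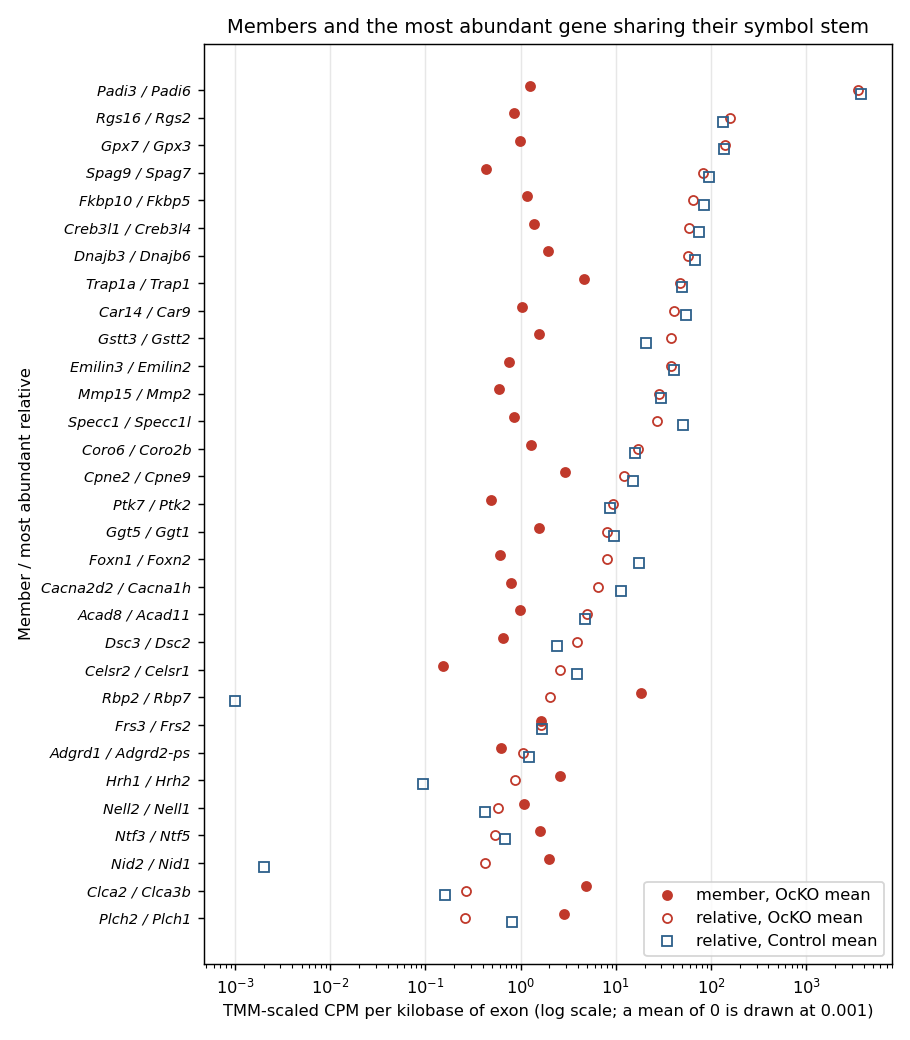
TMM-scaled CPM per kb of exon (log axis) of members in OcKO, and of the most abundant tested relative of each in OcKO and Control, as group means. Relatives such as Padi6, Rgs2 and Fkbp5 sit high in both groups, whereas Rbp7 and Nid1 are low in OcKO and at or near 0 in Control.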

How the data were processed

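The authors deposited raw counts of reads per gene for 6 libraries, as 1 table of the series and 1 file per sample, which differed in 0 values. Per the submitters' processing notes, reads were handled with Trimmomatic 0.36, STAR 2.5.2b and featureCounts of Subread 1.5.2 on GRCm38. The sources used here give no annotation release, strand setting or treatment of multi-mapped reads, and reads shared between copies could be split or lost.

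The members and gene lists were chosen with earlier results of these data known. Member CPM are counts over the library's total; 1 count was worth 0.0224 to 0.0276 CPM. For a Control group at 0, a fold is a lower bound with Control set at 3 summed counts; otherwise ratios carry an exact 95% counting interval. Both reflect counting error alone, as PCR copies were not marked by molecular identifiers. All genes were fitted by edgeR 4.0.16 (quasi-likelihood test, R 4.3.3, TMM, filterByExpr, Benjamini-Hochberg over 16060 genes); DESeq2 1.42.0 and limma 3.58.1 voom were alternatives. Library size alone in place of TMM moved the median log2 fold change by 0.17. Marker sums were compared by exact two-sided permutation tests. Scripts were tested on simulated data. Neighbours were the nearest tested genes on each side of a member and those whose span overlaps it; relatives shared the symbol without trailing digits and letters. Members are named by group, and a few genes are not reported here; values per library are given for those with an OcKO mean of at least 5 CPM and a gene name, and for relatives, the most abundant of each such member. In gene lists, up to 3 called genes are named, otherwise the 1 with the smallest p. Biotypes are from GENCODE M21, which held 99.5% of the identifiers, and coordinates from the deposited files. No libraries were duplicates (chi-square per degree of freedom of at least 114.5 for each pair).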

Additional observations from a re-analysis of the deposited data

How the results depend on the processing

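Under other settings, the all-gene calls (22 higher and 1 lower by edgeR) became 68 and 7 with a minimum mean of 5 CPM, 480 and 275 with DESeq2 and 0 higher with limma voom. Without 1 library they were 0 to 4 higher and 0 to 2 lower. DESeq2 called 8 neighbours, 8 relatives and 19 list genes, where edgeR called 0, 0 and 4; library size alone called 1 relative; without 1 library the list genes numbered 0 to 0. The cause of these moves was not tested. Replicate numbers did not pair the mice: the correlations of same-numbered deviations were -0.037, -0.0448 and -0.045, and with a replicate block 0 genes were called higher, 0 lower and 0 list genes. The 74 members became 39 with a Control sum of 0, 142 at 0.5 CPM and 46 at 2 CPM, and 101 to 169 without 1 library. The reverse set of 1 gene became 5 with a sum of at most 10, 2 at 0.5 CPM and 0 at 2 CPM, and 1 to 13 without 1 library. These follow from looser or stricter limits. Leaving out the most abundant gene of each marker list, chosen after seeing the data, turned the mean OcKO minus Control difference in summed CPM to 4.714 for theca and stroma, 0.1296 for red cells, 6.35 for enterocytes and 44.45 for 2-cell genes, each negative with that gene. Of 101 alternative values, 54 stayed within 1.5 times the reported one or kept its direction. At this depth, a gene with 0 counts in the 3 Control libraries may still hold up to 3 counts' worth of RNA.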
